A study of Rattus norvegicus with 9 samples.

Results

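The sarcomere is the contractile unit of striated muscle, and 38 genes for its parts and attachments were followed here in the rat left ventricle after myocardial infarction. They were taken by gene symbol from a fixed list and placed in 5 functional groups. These were the thin filament, the thick filament, the Z-disc and its links, the M-band with the MuRF ubiquitin ligases, and chaperones and assembly factors. Of the 38 genes, 36 had a row among the 35843 genes of the expression table. They were 8 of 8 thin filament genes, 4 of 5 thick filament genes, 15 of 16 Z-disc genes, 5 of 5 M-band and ligase genes and 4 of 4 chaperones and assembly factors. Expression of the spring protein gene Ttn and the Z-disc gene Tcap was not analysed here.

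The rats were male Sprague-Dawley rats examined at day 28, with 3 in each group. In group MI the left anterior descending coronary artery had been ligated and saline was given by gavage. Group MI + DAPA (1st d), called DAPA below, had the same ligation and received the SGLT2 inhibitor dapagliflozin by gavage from the first day. Group Sham had the operation without the ligation and was also given saline by gavage. RNA was extracted from left ventricular tissue, a mixture of cells. The study mainly used the infarct border for molecular work, with the matching site in group Sham. For the sequenced RNA its methods name only the left ventricle. Its results speak of infarct myocardium in groups MI and DAPA and normal myocardium in group Sham. In such bulk tissue, fewer cardiomyocytes and less RNA per cardiomyocyte cannot be told apart.

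Thin filaments carry actin, tropomyosin and the troponin complex, which makes contraction depend on calcium. Thick filaments carry myosin, its light chains and myosin-binding protein C, and the filaments are anchored at the Z-disc and cross-linked at the M-band. Desmin and the filamin and Xin proteins tie the Z-disc and the cell junctions to the rest of the cell, while small heat shock proteins and MuRF ligases serve the upkeep and breakdown of these proteins.

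Promoters of the members were searched because these genes share expression in muscle and are textbook targets of muscle transcription factors. RefSeq windows of the GRCr8 rat assembly, from 250 bases before to 50 after the start of transcription, were found for 31 of the 38 genes. Both strands were read for the MEF2 box, the CArG box of serum response factor, the MCAT element CATTCC and the GATA sites AGATAA and TGATAA. At least 1 of these motifs was present in 22 of the 31 windows, or 71.0%, against 31.2% of all 27457 promoters. The MEF2 box was in 6 members (19.4% against 0.605% of all promoters), namely Myoz2, Xirp2, Ttn, Mybpc3, Hspb7 and Smpx. The CArG box was in 4 members (12.9% against 1.64%), the MCAT element in 10 (32.3% against 13.9%) and a GATA site in 11 (35.5% against 18.6%). A match is a description of the letters in these windows and not a measured binding site.

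The 4 windows below belong to genes that differed between group MI and group Sham, chosen by the number of motifs and then by the alphabet, and their motifs are in capitals. Mybpc3 and Ldb3 were lower in group MI, and Flnc and Hspb7 were higher. The windows are chr3:97550811-97551110 on the plus strand for Mybpc3, chr16:9924630-9924929 on the minus strand for Ldb3, chr4:58999297-58999596 on the plus strand for Flnc and chr5:159010509-159010808 on the plus strand for Hspb7.
Mybpc3: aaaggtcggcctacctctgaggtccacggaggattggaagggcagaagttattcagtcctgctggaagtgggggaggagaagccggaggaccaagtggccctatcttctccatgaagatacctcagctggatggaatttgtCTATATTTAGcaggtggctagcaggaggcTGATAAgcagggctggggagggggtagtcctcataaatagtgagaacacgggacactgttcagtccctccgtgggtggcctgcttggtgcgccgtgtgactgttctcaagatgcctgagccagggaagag
Ldb3: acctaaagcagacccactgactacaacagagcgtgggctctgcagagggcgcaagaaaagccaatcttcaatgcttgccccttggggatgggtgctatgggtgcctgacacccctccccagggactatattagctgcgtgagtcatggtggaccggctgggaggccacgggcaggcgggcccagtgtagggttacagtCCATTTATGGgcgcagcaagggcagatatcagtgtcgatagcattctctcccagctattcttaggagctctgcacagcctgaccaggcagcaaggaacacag
Flnc: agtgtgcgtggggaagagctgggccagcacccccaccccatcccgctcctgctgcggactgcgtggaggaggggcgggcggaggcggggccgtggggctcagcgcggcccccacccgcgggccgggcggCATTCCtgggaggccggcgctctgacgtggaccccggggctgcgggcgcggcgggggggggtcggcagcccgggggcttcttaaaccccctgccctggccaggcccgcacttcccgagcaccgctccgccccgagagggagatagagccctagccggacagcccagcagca
Hspb7: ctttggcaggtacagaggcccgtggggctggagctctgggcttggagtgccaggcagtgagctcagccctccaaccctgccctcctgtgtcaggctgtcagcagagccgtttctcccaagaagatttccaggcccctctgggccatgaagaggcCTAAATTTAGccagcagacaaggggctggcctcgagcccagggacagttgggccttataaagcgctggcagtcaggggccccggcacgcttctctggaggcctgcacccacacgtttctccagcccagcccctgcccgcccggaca
In Mybpc3 the MEF2 box started at position -109 and the GATA site at -80, counted from the start of transcription. The CArG box of Ldb3 started at -52, the MCAT element of Flnc at -121 and the MEF2 box of Hspb7 at -96. Genes with the same motif thus included members that were lower and members that were higher after infarction.

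The values were FPKM (fragments per unit of transcript length and of library size), from which 13597239 to 17210909 whole reads per rat were recovered. Genes of the mitochondrial genome took 61.1% to 66.9% of these reads in Sham rats, 7.07% to 19.1% in MI rats and 17.5% to 32.0% in DAPA rats. Reads outside the mitochondrial genome ran from 5702454 to 13171891, lowest in group Sham. The members were at between 0 and 4564 FPKM, and 34 of the 36 held at least 1 FPKM in 3 of the rats of groups MI and Sham. The 2 others were Tnni1, the troponin I isoform of developing heart and slow muscle, and Lmod2, an actin filament elongation factor. Lmod2 had 0 to 22 reads in the 9 rats and passed the filter in no comparison.

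In group Sham, Tnni3, the cardiac inhibitory troponin, had a mean of 3312 FPKM ± 826 (SD, n = 3), followed by Tnnt2, the tropomyosin-binding troponin, at 2282 ± 356 and by the essential light chain gene Myl3 at 1449 ± 329.9. Neighbours in this order overlapped in part: the lowest Tnni3 rat, at 2359.5 FPKM, lay below the highest Tnnt2 rat, at 2685 FPKM. The regulatory light chain gene Myl2 was listed at only 97.9 FPKM ± 15.4 (SD, n = 3), and Myl3 was 11.3 to 20.2 times as high as Myl2 within single Sham rats. That ratio was 14.7 to 18.7 in group MI and 10.4 to 16.2 in group DAPA, so the ranges overlapped in all 3 groups.

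**Figure D1:**
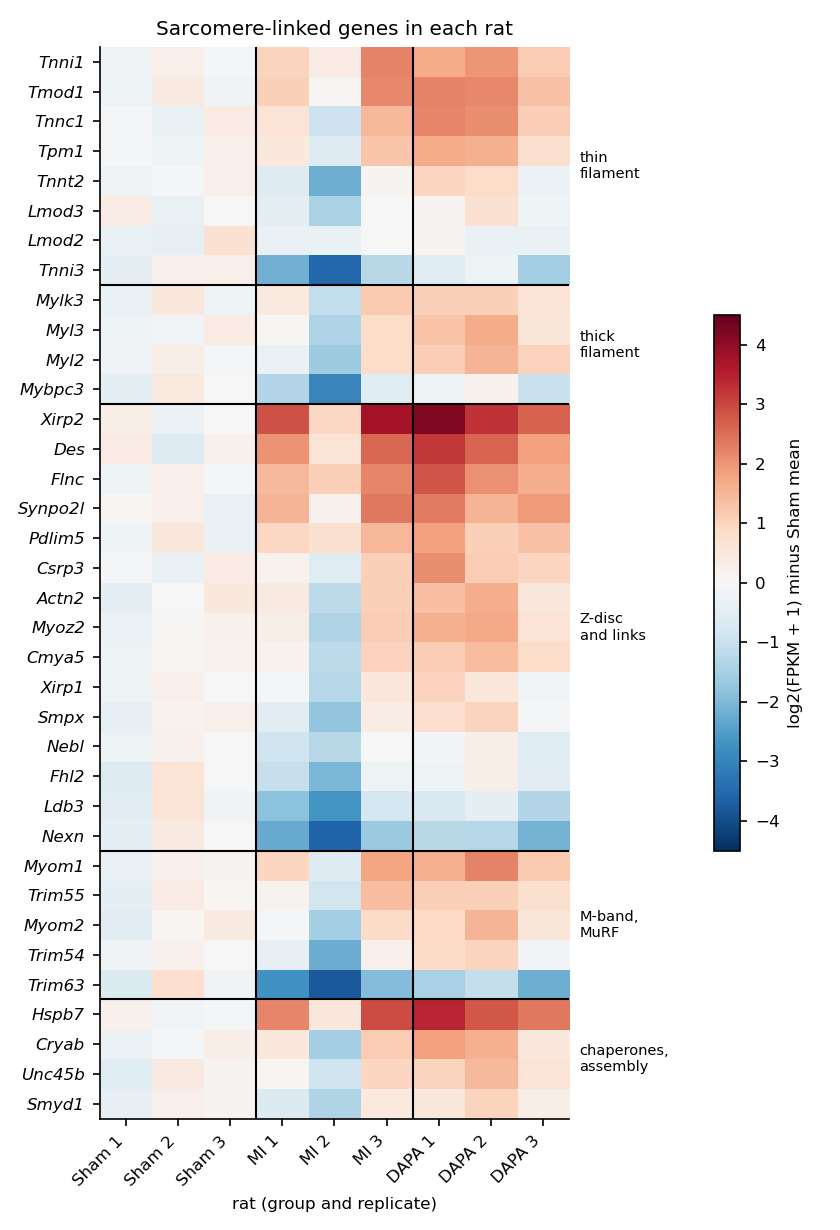
Level of the 36 members in each of the 9 rats, as log2(FPKM + 1) minus the mean of the 3 Sham rats, by functional group (rows) and rat (columns, with DAPA for group MI + DAPA (1st d)). Red is above and blue below the Sham mean. MI 2 is the lowest and MI 3 the highest rat of group MI in every row.

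The heat map of levels by rat showed that the rats of group MI differed from each other more than the rats of the other groups. MI replicate 2 was the lowest rat of its group in 36 of 36 members and MI replicate 3 the highest in 36 of 36. The ratio of the highest to the lowest rat had a median over the members of 1.60 among Sham rats, 4.96 among MI rats and 2.11 among DAPA rats. In group DAPA, replicate 3 was the lowest rat in 34 of 36 members. The mean log2(FPKM + 1) of all members was 5.58, 4.38 and 6.38 in MI replicates 1 to 3, and 5.52 ± 0.20 (SD, n = 3) in group Sham.

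Other marker lists varied among the same rats. The 3 markers of B and plasma cells had a mean log2(FPKM + 1) of 1.82, 6.92 and 4.54 in MI replicates 1 to 3, against 0.64 to 1.03 in Sham rats and 1.20 to 1.60 in DAPA rats. The 8 fibroblast markers were at 4.45 ± 0.58 (SD, n = 3) in Sham rats, 8.13 ± 0.42 in MI rats and 7.51 ± 0.21 in DAPA rats. The group means for Sham, MI and DAPA rats were 3.02, 5.53 and 4.83 for 5 macrophage markers and 6.18, 4.76 and 5.17 for 3 endothelial markers. They were 6.90, 6.48 and 6.51 for 4 smooth muscle markers and 1.14, 1.79 and 2.05 for 4 adipocyte markers. For 4 atrial markers they were 3.07, 4.62 and 5.95. Of these, Nppa, Myl4 and Myl7 had a higher mean FPKM in group MI than in group Sham, and Sln a lower one (0.469 against 2.30). The 16 cardiomyocyte genes that are no members were at 4.92 ± 0.26, 4.43 ± 0.80 and 5.25 ± 0.30 in Sham, MI and DAPA rats. Like the members they were lowest in MI replicate 2, at 3.56, but they followed the members only in part. Between groups MI and Sham their median log2 fold change was -0.54, with 14 of 16 below 0. Between groups DAPA and Sham it was 0.42, with 10 above 0. Of 8 skeletal muscle markers, Myh1, Actn3, Mybpc1 and Pvalb were under 1 FPKM in every rat, and the sum of all 8 was 14.9 to 28.2 FPKM. Tnnt3 made up most of that sum, at 12.6 to 24.0 FPKM. Tnnt3, Tnni2 and Tnnc2 had a lower mean FPKM in groups MI and DAPA than in group Sham. Mybpc2 had a higher one, with means of 0.857, 1.92 and 2.95 FPKM in groups Sham, MI and DAPA. The part of the cell mixture in the results that follow was not tested.

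**Figure D2:**
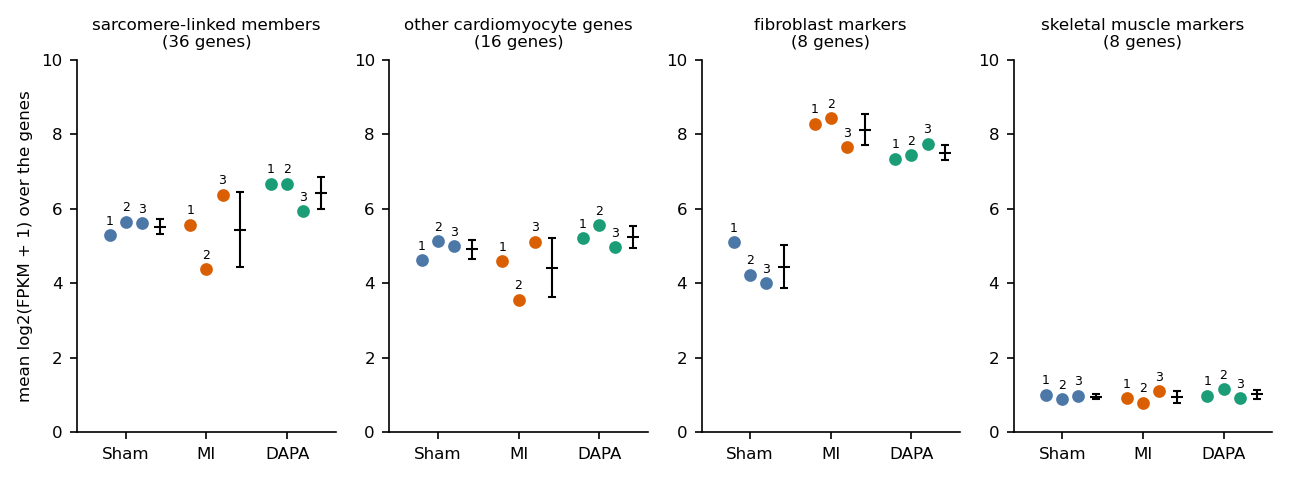
Mean log2(FPKM + 1) over the 36 members, 16 other cardiomyocyte genes, 8 fibroblast markers and 8 skeletal muscle markers in each rat. Points are rats with their replicate numbers, and the dash and bars are the group mean and SD (n = 3). Fibroblast markers are higher in all 6 infarcted rats than in the 3 Sham rats, while the members of MI 2 and MI 3 lie on either side of group Sham.

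The first comparison asked how these genes differed between the infarcted and the sham-operated ventricle. Of 34 members tested, 5 were lower and 6 were higher in group MI (limma on log2(FPKM + 1), unadjusted p under 0.05 and log2 fold change beyond 1). Among all 13485 genes tested, 10.3% were lower and 12.1% were higher by the same rule. After Benjamini-Hochberg adjustment of the limma p-values over all genes, 4 members were lower and 5 higher, against 9.93% and 11.5% of all genes. In FPKM, 5 of the 34 members were higher and 5 lower in every MI rat than in every Sham rat. Of all 13485 genes, 3659 were higher and 3708 lower without overlap, so a lack of overlap was common in this comparison. The median log2 fold change of the members was 0.01, and that of all genes was -0.01, so the members lay on both sides of 0. The median of the members was 0.56 without MI replicate 2 and -0.53 without MI replicate 3, with 22 and 8 of the 34 above 0.

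In the thin filament, 1 of 6 tested members was lower and none was higher. Tnni3 was at 2359.5, 3811 and 3767 FPKM in the Sham rats and at 716, 281 and 1352 FPKM in the MI rats. All 3 MI rats lay below all 3 Sham rats, and the log2 fold change was -2.32 (SE 0.55, limma adjusted p = 0.016). Tnnt2 ranged from 2008 to 2685 FPKM in group Sham and from 489 to 2486 FPKM in group MI, and Tnnc1, the calcium-binding troponin, from 309.5 to 497 and from 205 to 1099 FPKM. Both overlapped between the groups, with log2 fold changes of -0.89 (SE 0.56) and 0.40 (SE 0.57). Tmod1, the cap of the pointed end of actin filaments, had a log2 fold change of 1.10 (SE 0.49) with a limma adjusted p of 0.117.

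Tnni1 was not tested because it missed the filter. It had 0, 4 and 1 reads in the Sham rats, 31, 10 and 107 in the MI rats and 54, 72 and 34 in the DAPA rats. Every infarcted rat thus had more reads than every Sham rat, at levels of at most 4.34 FPKM. In the infarcted rats Tnni1 reached no more than 0.00321 times the FPKM of Tnni3.

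In the thick filament, Mybpc3, which encodes myosin-binding protein C, was the 1 of 4 members that passed the unadjusted rule. It was at 283, 506 and 370.1 FPKM in the Sham rats and 149, 46.6 and 257 FPKM in the MI rats, without overlap. Its log2 fold change was -1.62 (SE 0.58), and its adjusted limma p of 0.063 missed the threshold. The light chain genes Myl2 and Myl3 and the myosin light chain kinase gene Mylk3 had log2 fold changes of -0.35, -0.16 and 0.17.

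The Z-disc group held the widest split, with 2 lower and 5 higher of 15 members. Nexn, for the actin-binding Z-disc protein nexilin, was at 172, 301 and 227 FPKM in the Sham rats and 46.6, 17.7 and 70.3 FPKM in the MI rats. The groups did not overlap, and the log2 fold change was -2.52 (SE 0.48, limma adjusted p = 0.0071). Ldb3, for the actinin-binding protein Cypher, went from 48.9, 106 and 60.5 FPKM in group Sham to 18.2, 9.78 and 39.2 FPKM in group MI, with a log2 fold change of -1.77 (SE 0.49, limma adjusted p = 0.028).

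Xirp2, an actin-binding Xin-repeat protein of Z-discs and intercalated discs, had the highest log2 fold change of the members that passed the filter. It was at 6.54, 4.28 and 5.38 FPKM in the Sham rats and 44.9, 11.0 and 83.5 FPKM in the MI rats, with a log2 fold change of 2.50 (SE 0.65, limma adjusted p = 0.021). Even the lowest MI rat was above the highest Sham rat. Its paralog Xirp1 ranged from 5.92 to 8.64 FPKM in group Sham and from 2.32 to 10.6 FPKM in group MI, with a log2 fold change of -0.29 (SE 0.43).

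Des, the muscle intermediate filament desmin, was at 207, 106 and 183 FPKM in the Sham rats and at 651, 243 and 958 FPKM in the MI rats. Flnc, the muscle filamin, was at 3.47, 4.92 and 3.92 FPKM and at 12.9, 9.76 and 22.1 FPKM. Neither overlapped between the groups, and the log2 fold changes were 1.74 (SE 0.51, limma adjusted p = 0.033) and 1.58 (SE 0.29, limma adjusted p = 0.0064). Synpo2l, an actin-bundling Z-disc protein, had 4.23, 4.87 and 2.98 FPKM in group Sham and 13.4, 4.74 and 24.6 FPKM in group MI, so that MI replicate 2 fell within the Sham range. Its log2 fold change of 1.37 (SE 0.50) had an adjusted limma p of 0.068. Pdlim5, a PDZ-LIM adaptor of the Z-disc, also passed, with a log2 fold change of 1.04 (SE 0.29, limma adjusted p = 0.027). The Z-disc backbone gene Actn2, with a log2 fold change of 0.10 (SE 0.55), and the muscle LIM protein gene Csrp3, with 0.24 (SE 0.40), did not pass.

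Trim63, which encodes the muscle ubiquitin ligase MuRF1, was the only one of 5 M-band and ligase genes that passed, and it had the lowest log2 fold change of the members tested. It was at 27.2, 72.1 and 38.0 FPKM in the Sham rats and 5.54, 2.15 and 10.1 FPKM in the MI rats, with a log2 fold change of -2.82 (SE 0.51, limma adjusted p = 0.0061). The other MuRF genes did not pass, with log2 fold changes of -0.80 (SE 0.57) for Trim54 and 0.25 (SE 0.53) for Trim55. The M-band cross-linkers Myom1 and Myom2 had log2 fold changes of 0.73 (SE 0.55) and -0.25 (SE 0.57).

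Among the chaperones and assembly factors, 1 of 4 passed. Hspb7, a small heat shock protein of the heart, was at 67.3, 54.1 and 55.7 FPKM in the Sham rats and 271, 83.8 and 462 FPKM in the MI rats, with no overlap and a log2 fold change of 1.88 (SE 0.56, limma adjusted p = 0.034). The related Cryab ranged from 414 to 618 FPKM in group Sham and from 173 to 1094 FPKM in group MI, with a log2 fold change of 0.03 (SE 0.63). The myosin chaperone gene Unc45b and the methyltransferase gene Smyd1 had log2 fold changes of 0.05 and -0.52.

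**Figure D3:**
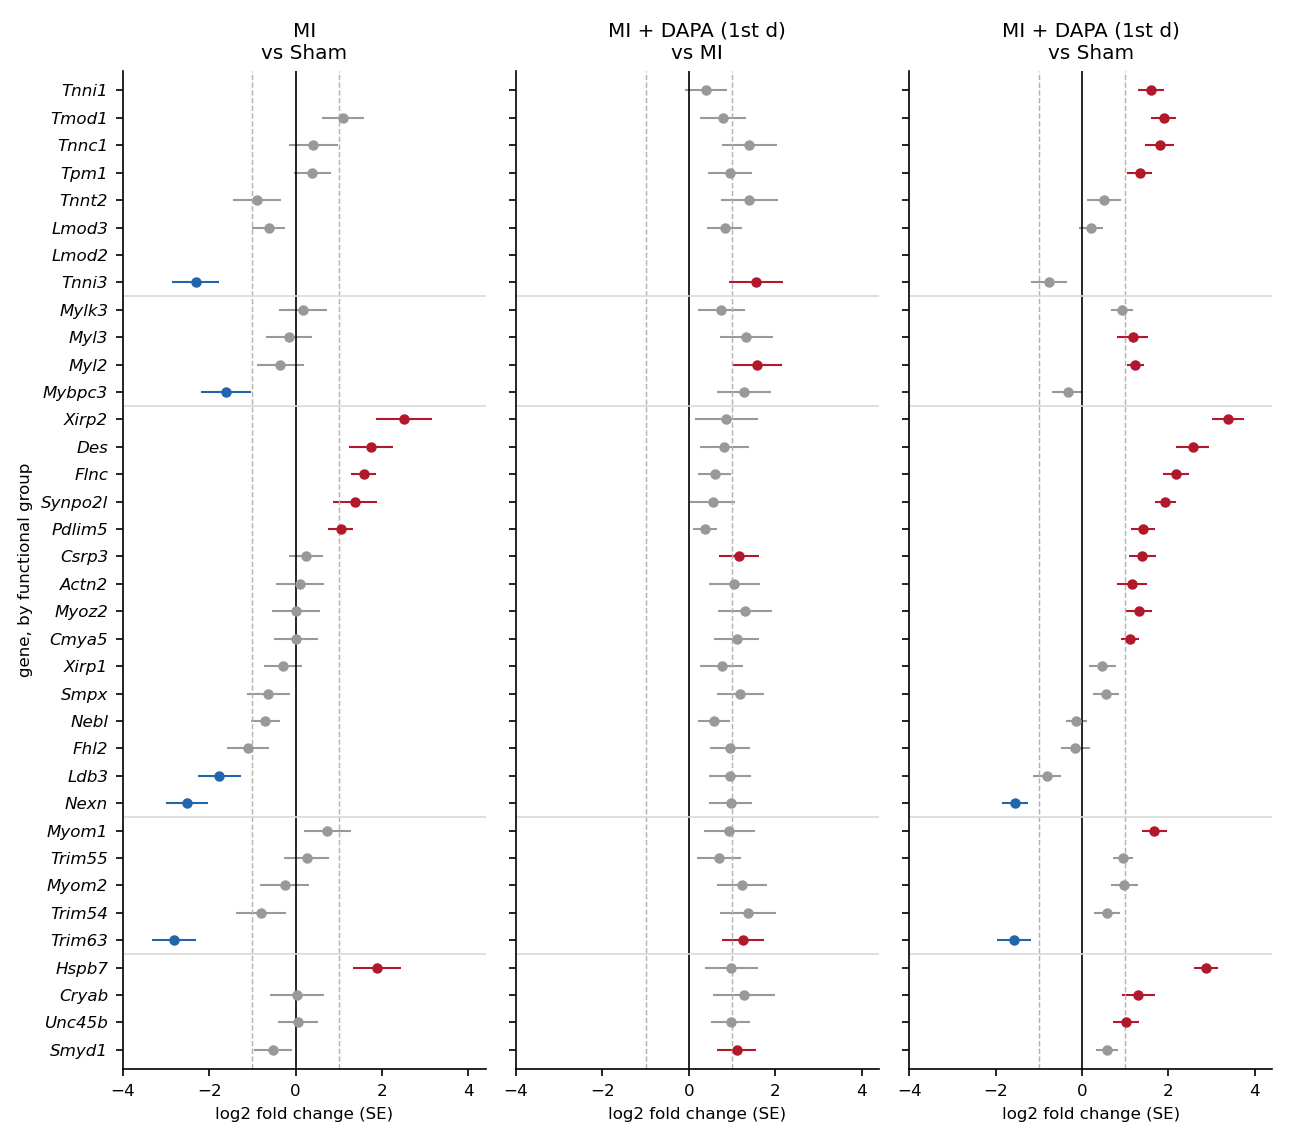
Log2 fold change of log2(FPKM + 1) with its standard error for each member in the 3 comparisons, by functional group. Red points were called higher and blue points lower (unadjusted limma p under 0.05 and log2 fold change beyond 1, dashed lines), grey points were not called, and members without a point were not tested. The points of the left panel spread from -2.82 to 2.50, and those of the middle panel all lie above 0.

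Some of these calls depended on single rats and on the scaling. All 11 were kept when each rat was rescaled to the same sum over genes outside the mitochondrial genome. They were also kept after centring each rat on the 16 cardiomyocyte genes that are no members. Leaving out single rats took calls only from Mybpc3, Pdlim5 and Synpo2l. Without MI replicate 3 there were 10 members lower in group MI, and without MI replicate 2 there were 9 higher. The median of all genes was -0.04 and -0.03 in these runs, and their shares of all genes called are not given here. Mybpc3 lost its call without MI replicate 2, Sham replicate 2 or Sham replicate 3, and Pdlim5 without MI replicate 3, Sham replicate 1 or Sham replicate 3. Synpo2l lost its call without MI replicate 1, MI replicate 3, Sham replicate 1 or Sham replicate 3. When all values of a rat were rescaled to the same sum with the mitochondrial genome included, the median of all genes moved to 1.27, and 1 member was lower and 22 were higher. Trim63 then kept its call, and Tnni3, Mybpc3, Ldb3 and Nexn lost theirs while staying negative.

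Levels were also set against the other members of the same rat, which takes out most of the scaling between libraries. Members near 0, such as Tnni1 and Lmod2, still depend on it through the 1 FPKM added. For each member the mean log2(FPKM + 1) of the other members was subtracted. Between groups MI and Sham, 10 of 36 members were higher in every MI rat than in every Sham rat by this measure, and 12 were lower in every MI rat. Among all genes tested, 7.04% were higher and 6.90% were lower without overlap when set against the mean of the members. The members centre on 0 in this measure by its construction, and all genes need not. The members also vary together within a rat, so subtracting their mean takes spread out of the members and can add it to other genes. The shares of all genes therefore do not measure an excess among the members. In a two-sided exact permutation test, each non-overlapping member reached 0.1, below which 3 rats against 3 cannot go, and 0.164 after adjustment over 36 members.

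The 10 members higher by this measure were Xirp2, Hspb7, Des, Flnc, Synpo2l, Tnni1, Tmod1, Pdlim5, Myom1 and Tpm1, the gene for tropomyosin. The 12 lower ones were Xirp1, Smyd1, Smpx, Nebl, Trim54, Tnnt2, Fhl2, Mybpc3, Ldb3, Tnni3, Nexn and Trim63. Tnni3 lay 6.08 to 6.45 log2 units above the other members in group Sham and 3.87 to 4.14 above them in group MI. Nexn was 2.20 to 2.65 above them in group Sham and -0.23 to -0.003 in group MI.

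Ratios of FPKM between members of the same rat do not depend on the scaling. The following pairs were chosen after their values were seen and carry no test. In group Sham the FPKM of Tnnc1 was 0.0812 to 0.160 times that of Tnni3, whose product sits in the same complex. Its range was 0.728 to 0.836 in group MI and 0.598 to 0.802 in group DAPA, so the MI and DAPA rats overlapped each other and neither reached group Sham. Tnnc1 was 0.144 to 0.188 times Tnnt2 in Sham rats, 0.396 to 0.442 times in MI rats and 0.401 to 0.443 times in DAPA rats.

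Nexn stood at 2.01 to 3.74 times Actn2 in group Sham, 0.406 to 0.495 times in group MI and 0.367 to 0.460 times in group DAPA. Trim63 was 0.306 to 0.633 times Trim54 in group Sham, 0.0719 to 0.105 times in group MI and 0.0797 to 0.0971 times in group DAPA. For these pairs too, all 6 infarcted rats lay apart from the 3 Sham rats, and MI replicates 2 and 3, which differed most in level, had Nexn to Actn2 ratios of 0.495 and 0.406.

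**Figure D4:**
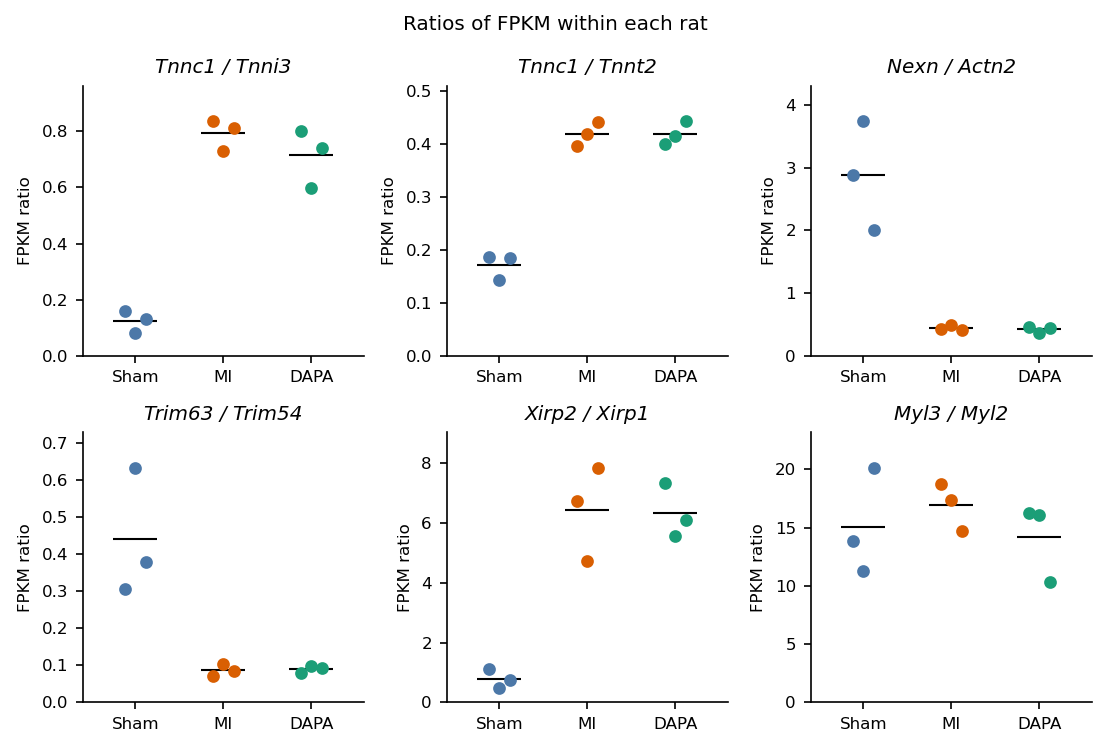
FPKM ratios of 6 pairs of members within each rat (linear axes from 0, points are rats and lines are group means, n = 3, with DAPA for group MI + DAPA (1st d)). In 5 pairs the 6 infarcted rats do not overlap the 3 Sham rats, while the Myl3 to Myl2 ratio overlaps across all groups.

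For 9 pairs fixed in the analysis plan with earlier results known, differences of log2(FPKM + 1) within a rat were put through the same exact permutation test, 27 comparisons in all. A further planned pair, Ttn to Mybpc3, was not formed. Groups MI and Sham did not overlap in 6 of the 9 pairs, groups DAPA and MI in 4 and groups DAPA and Sham in 6. Pairs of other genes were not taken, so these counts have no share to stand against. The 4 between groups DAPA and MI included Tnni1 to Tnni3 and Lmod3 to Lmod2. Tnni1 and Lmod2 are low, and their differences depend on the 1 FPKM added. The 3 pairs that overlapped between groups MI and Sham were Myl3 to Myl2, Csrp3 to Actn2 and Lmod3 to Lmod2. The Xirp2 to Xirp1 difference was -0.36 ± 0.50 (SD, n = 3) in Sham rats, 2.43 ± 0.52 in MI rats and 2.53 ± 0.23 in group DAPA. The Trim63 to Trim55 difference was 2.76 ± 0.34 (SD, n = 3), -0.31 ± 0.25 and 0.23 ± 0.40 in the same order, and the Myom2 to Myom1 difference 2.44 ± 0.25, 1.46 ± 0.04 and 1.76 ± 0.05. Groups MI and DAPA overlapped for the first 2 of these pairs but not for the myomesins. Each difference without overlap had an exact permutation p of 0.1 and an adjusted p of 0.169 over the 27.

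The second comparison asked how the infarcted ventricle differed with dapagliflozin from the first day, and it shares the MI rats with the first. All 35 members tested had a log2 fold change above 0 in group DAPA against group MI, from 0.38 for Pdlim5 to 1.59 for Myl2, where 47.2% of all 13251 genes did. The median over the members was 0.97, and over all genes it was -0.02. The groups overlapped in nearly every member: Myl2 alone was higher in every DAPA rat than in every MI rat, and 6.63% of all genes were. The members vary together within a rat, so the 35 signs are not separate observations.

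By the same rule, 5 members were higher in group DAPA and 0 were lower, where 0.951% of all genes were higher and 1.11% were lower. None of the 5 passed an adjusted limma p of 0.05, the smallest adjusted value of any gene being 0.558, and at an unadjusted limma p under 0.05 the counts were also 5 and 0. They came from all 5 functional groups.

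Myl2 was at 79.7, 31.3 and 174 FPKM in the MI rats and at 212, 283 and 203 FPKM in the DAPA rats, with a log2 fold change of 1.59 (SE 0.57, limma adjusted p = 0.558). Tnni3 was at 2204, 2787 and 1130.1 FPKM in the DAPA rats, of which replicate 3 lay below the highest MI rat, and its log2 fold change was 1.56 (SE 0.62, limma adjusted p = 0.558). Trim63 was at 14.5, 19.6 and 8.48 FPKM in the DAPA rats, with a log2 fold change of 1.25 (SE 0.49, limma adjusted p = 0.558). Again DAPA replicate 3 fell within the range of group MI.

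Csrp3 was at 176, 109 and 337 FPKM in the MI rats and 674, 352 and 309.5 FPKM in the DAPA rats, with a log2 fold change of 1.16 (SE 0.47, limma adjusted p = 0.558). Smyd1, which is needed for sarcomere assembly, was at 2.99, 1.37 and 7.17 FPKM in the MI rats and 7.63, 11.1 and 6.36 FPKM in the DAPA rats, with a log2 fold change of 1.11 (SE 0.44, limma adjusted p = 0.558). MI replicate 3 lay inside the DAPA range for both.

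These calls rested on single rats. Without MI replicate 3, 29 members were called higher and the median log2 fold change was 1.49. The median of all genes was then -0.03, and the share of all genes called in this run is not given here. None of the 29 passed adjustment, the smallest adjusted limma p of any gene being 0.374. Without MI replicate 2 none was called and the median was 0.49. None was called without MI replicate 1, DAPA replicate 1 or DAPA replicate 2 either, and 1 was called with the replicate number as a block. After centring each rat on the 16 cardiomyocyte genes that are no members, 0 members were called, the median of the members was 0.15, and 26 of 35 stayed above 0. The median of all genes was then -0.84, and 430 of 13251 were above 0. Those 16 genes had a median log2 fold change of 0.89 themselves, with 15 of 16 above 0.

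Set against the other members of the same rat, few members differed between groups DAPA and MI. The differences had an SD over the 36 members of 0.36, against 1.25 between groups MI and Sham. Tnni3, Tnnc1, Myl3, Trim63 and Smpx were higher in every DAPA rat, where 0.143% of all genes set against the members were, and Tnni1 was lower in every DAPA rat, where 5.91% were. These shares again take the members, which centre on 0 by construction and vary together, as the reference for every gene. They therefore do not measure an excess among the members. Tnni1, at 0.440 to 4.34 FPKM in the infarcted rats, depends in this measure on the 1 FPKM added. Its own log2 fold change against group MI was 0.39 (SE 0.49). Tnni3 was 4.33 to 4.90 log2 units above the other members in group DAPA, between the ranges of groups MI and Sham. The adjusted exact permutation p was 0.554 at the smallest.

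The third comparison set the treated infarcted ventricle against group Sham, and it shares the DAPA rats with the second and the Sham rats with the first. Of 35 members tested, 2 were lower and 19 were higher in group DAPA, where 8.16% and 9.54% of all 13359 genes were. Without Tnni1, which entered this fit only through the DAPA rats since no Sham rat reached 1 FPKM, 2 were lower and 18 were higher of 34, with a median of 1.07. The counts over the 35 were the same with adjusted limma p-values, against 7.49% and 8.74% of all genes. The median log2 fold change was 1.12 for the members and 0.01 for all genes. The mean of group DAPA was above the means of both other groups in 28 of 36 members. In FPKM, 23 of the 35 members, Tnni1 among them, were higher in every DAPA rat than in every Sham rat, and 2 were lower. Of all 13359 genes, 3100 were higher and 3116 lower without overlap.

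Trim63 and Nexn were the members called lower than group Sham, with log2 fold changes of -1.58 (SE 0.40, limma adjusted p = 0.023) and -1.55 (SE 0.30, limma adjusted p = 0.0101). Nexn was at 96.0, 92.9 and 51.4 FPKM in the DAPA rats, all below the lowest Sham rat. Of the other members lower in group MI, Tnni3 had a log2 fold change of -0.76 (SE 0.41), Ldb3 of -0.81 (SE 0.33) and Mybpc3 of -0.33 (SE 0.35) against group Sham, and none of these passed. Set against the other members of the same rat, however, Tnni3, Ldb3 and Mybpc3 were lower in every DAPA rat than in every Sham rat. The mean differences were -1.72, -1.76 and -1.28. Each had an exact permutation p of 0.1, and 0.164 after adjustment. By this measure 11 of 36 members were higher and 11 lower without overlap, and the share of all genes is not given here. The mean log2(FPKM + 1) of all members was 5.52 in group Sham and 6.43 in group DAPA. A member that rose less than the others therefore falls in this measure by its construction.

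The 19 higher members came from every functional group. On the log2(FPKM + 1) scale, which compresses changes of low genes such as Tnni1, the highest were Xirp2, with a log2 fold change of 3.37 (SE 0.37, limma adjusted p = 0.0020), Hspb7, with 2.87 (SE 0.27, limma adjusted p = 0.0016), and Des, with 2.56 (SE 0.39, limma adjusted p = 0.0045). Xirp2 was at 116, 59.1 and 39.2 FPKM and Hspb7 at 647, 411 and 309 FPKM in the DAPA rats, each above every Sham rat. Flnc had 2.18, Synpo2l 1.93, Tmod1 1.89, Tnnc1 1.80, Myom1 1.67 and Tnni1 1.60 as log2 fold change.

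The others that were higher were Pdlim5, Csrp3, Tpm1, Myoz2, Cryab, Myl2, Myl3, Actn2, Cmya5 and Unc45b, with log2 fold changes from 1.02 to 1.42. These included the backbone of the Z-disc, both light chains and tropomyosin. With centring on the 16 cardiomyocyte genes, 12 members were higher and 4 lower, and Myl2, Myl3, Cryab, Actn2, Myoz2, Cmya5 and Unc45b lost their calls. The median of all genes was then -0.32, and the shares of all genes called are not given here. With the same sum over all genes 29 were higher and 0 lower, the median of all genes then being 0.96.

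Sarcomere genes outside the 38 were described from a second list of 36 genes, of which 35 had a row. By the same unadjusted rule, 4 of 31 tested were lower in group MI than in group Sham, among them the myosin heavy chain genes Myh6 and Myh7b and the formin gene Fhod3. The 4 that were higher were Ankrd23, Acta1, Myh7 and Synpo2. Of all genes tested, 10.3% were lower and 12.1% were higher, so these counts were near the shares of all genes. Myh6, the fast adult heavy chain, had a log2 fold change of -2.43 (SE 0.52, limma adjusted p = 0.011), while Myh7, the slow heavy chain, had one of 1.68 (SE 0.53, limma adjusted p = 0.041). In group DAPA against group MI, 1 of 32 was higher and 0 were lower, where 0.951% and 1.11% of all genes were. The median log2 fold change was 0.91, with 27 above 0. The gene called was Myl4, the atrial light chain, at 1.63 (SE 0.66, limma adjusted p = 0.558). Against group Sham, 20 of 32 were higher and 2 were lower in group DAPA, where 9.54% and 8.16% of all genes were. The median was 1.29.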

How the data were processed

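Poly-A selected libraries of 9 rats (3 Sham, 3 MI, 3 DAPA) were sequenced by the authors, who deposited FPKM values, 1 column per rat. FPKM were already divided by gene length and a library size by the authors. That size was not in proportion to the recovered reads. Divided by them, on a scale common to all rats, it was 0.560 to 0.678 in Sham rats, 1.31 to 1.42 in MI rats and 1.04 to 1.35 in DAPA rats. The submitters' processing notes name HISAT2 2.0.5, StringTie 1.3.3b, featureCounts 1.5.0-p3 and DESeq2, and the genome build is not given in the sources used here. The number of columns not used was 0.

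The members and gene lists were chosen with earlier results of these data known. Whole reads were recovered from the steps of the low values for all 18896 genes that had values in 4 or more rats (tolerance 0.02 reads). In each rat 50.5% to 51.7% of them were odd, as counts without a common factor are. Depth limits only counting error, and the floor was taken as 3 reads.

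A gene entered a comparison with 1 FPKM or more in 3 or more of its rats. The test was limma 3.58.1 in R 4.3.3 on log2(FPKM + 1), a scale that understates changes of low genes, with 2 groups per fit and a trended prior variance. A call needed an unadjusted p under 0.05 with a log2 fold change beyond 1 in size. For values per rat the test was a two-sided exact permutation test. The test was tried on simulated data. Members named in full were those called in MI vs. Sham or DAPA vs. MI, at most 4 per functional group and direction, and the member with the smallest p in each group. Other members are given by range or count. From the list of other sarcomere genes, 1 gene is counted but not reported here by name. Groups came from the sample titles. The labels call the rats of a group biological replicates. Alternatives were another pseudocount (0.1), no filter, all 9 rats in 1 fit, a replicate block, 3 scalings, other call rules and each rat left out. Reads and plots were handled in Python 3.11.15 (numpy 2.4.6, pandas 2.3.3, matplotlib 3.10.9).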

Additional observations from a re-analysis of the deposited data

How the results depend on the processing

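No member called in any comparison changed its sign under any alternative run. In MI vs. Sham, rescaling to the same sum over all genes gave 1 member lower, 22 higher and a median of 1.41. Leaving out single rats gave 4 to 10 lower, the 10 without MI replicate 3, and 4 to 9 higher, the 9 without MI replicate 2. In DAPA vs. MI, 1 member was higher with no filter on low values, 14 with all 9 rats in 1 fit, 1 with the replicate block, 2 with the same sum over all genes, 0 with centring on cardiomyocyte markers, 0 with adjusted p-values and 0 to 29 with single rats left out. In DAPA vs. Sham, the same sum over all genes gave 0 lower, 29 higher and a median of 2.11, centring gave 4 lower and 12 higher, and single rats left out gave 2 to 4 lower, the 4 without DAPA replicate 2. The cause of these moves was not tested. The replicate block changed no call in the other comparisons, and the numbers are not shown to pair the rats: deviations of rats with the same number correlated at -0.304 to 0.0308 between groups MI and DAPA.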
